A study of Homo sapiens with 4 samples.

Results

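The cytosolic ribosomal protein genes were followed in HGC27, a human gastric cancer cell line, after knockdown of AARS1. The members were the genes whose listed symbol is RPL, RPLP, RPS or RPSA with its number and, for some, a suffix A, X, L, AL or L1. This rule used no measured value, and it took 83 of the 14431 genes listed, 50 of the large subunit (RPL and RPLP) and 33 of the small subunit (RPS and RPSA). RNA-seq was measured in 2 control libraries and 2 libraries with AARS1 knocked down by small interfering RNA (siAARS1). All 4 cultures were kept in DMEM free of glucose with 10% FBS and 25 mM lactate, for 24 h according to the labels, while the study's text gives another duration, so the time under lactate is uncertain. There was thus no library without lactate, and the comparison is of siAARS1 with control under lactate. The labels do not say whether the 2 libraries of a group came from separate cultures, and p-values measure the spread between these libraries.

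The ribosome is built from a small subunit, which holds the mRNA and decodes it, and a large subunit, which joins amino acids and carries the tunnel through which the new protein leaves. Each subunit is ribosomal RNA covered by ribosomal proteins, most of them present in a single copy, and their mRNAs are among the most abundant of a growing cell. Most of these mRNAs begin with a C followed by a run of pyrimidines, the 5' terminal oligopyrimidine (TOP) tract, through which mTOR signalling and the RNA-binding protein LARP1 control their translation and stability. AARS1 is the cytosolic enzyme that loads alanine onto its tRNA, and the study examines it as an enzyme that transfers lactate to proteins.

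The start sites of members that fell, rose or did not pass the test are shown here because the TOP tract is the sequence feature these mRNAs are known to share. The windows were read from RefSeq on GRCh38.p14, from 10 bases before the annotated start through the first 15 bases of the transcript, 5' to 3' on the strand of the gene, with the first tract found in capitals. The first 5 belong to genes called lower, the next 2 to genes not called and the next 2 to genes called higher.
RPL3, chr22:39319609-39319633, minus strand: gccgaccggCCTCTaccggcgggat
RPL28, chr19:55385922-55385946, plus strand: cctcgCCTTCCTCTTTCCgtctcag
RPL12, chr9:127451392-127451416, minus strand: cgatttccggCCTCTCggctttcgg
RPS16, chr19:39435935-39435959, minus strand: ccctagCTTTCCTTTTCCggttgcg
RPLP0, chr12:120201097-120201121, minus strand: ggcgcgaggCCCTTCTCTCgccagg
RPS24, chr10:78033853-78033877, plus strand: aatcgtggttCTCTTTTCCTCCTTg
RPS23, chr5:82278340-82278364, minus strand: cggtgCTTCTCTCTTTCgctcaggc
RPS3A, chr4:151099618-151099642, plus strand: cccacttccgCCCTTTTggctctct
RPL21, chr13:27251548-27251572, plus strand: ccgcctCTTTCCTTTCggccggaac
The last 2 are duplicated paralogs in which no tract was found, RPL7L1 called higher and RPS27L called lower.
RPL7L1, chr6:42879606-42879630, plus strand: gtgcggcgccgtagctaggagcgga
RPS27L, chr15:63157463-63157487, minus strand: gatgccgagcgcagatcgcttgcag

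A tract was counted where a C followed by at least 4 C or T on the transcribed strand started within 5 bases of an annotated start. Of the 83 members, 67 had a start in the RefSeq table, and 55 of them (82.1%) had a tract at 1 or more of their starts. The share over all 27305 genes of the table was 25.2%, and it was 24.2% among 66 mitochondrial ribosomal protein genes. Among the 5 duplicated paralogs, RPL22L1 and RPL36AL had a tract. The members with and without a tract did not separate by their change: 44 of 55 members with one were called lower and 3 higher, against 9 lower and 2 higher of the 12 members without one. Of all genes tested, 38% were called lower and 32.6% higher. The median log2 fold changes of the members with and without a tract were -0.22 and -0.18. A match describes the letters at an annotated start and does not show where transcription began in these cells.

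The libraries held 30653210 to 33522573 reads in the genes listed, so that 3 reads, the limit that a count of 0 allows, corresponded to 0.0880 to 0.0971 CPM (read counts scaled to the size of the library). The targeted gene, listed as AARS (chr16:70252295-70289543 on GRCh38), stood at 428 and 417 CPM in the controls against 292 and 298 CPM after knockdown, a log2 fold change of -0.52 ± 0.036 (SE) with an adjusted p of 2.52e-11. It was lower under all 16 alternative settings. Of the epithelial markers, EPCAM, KRT18 and KRT19 were not among the genes listed, KRT8 was at 24.8 and 25.2 CPM in control against 6.61 and 5.08 CPM in siAARS1, and CDH1 was at 0.680 to 2.55 CPM. VIM was at 4599.5 to 5131 CPM. Of the markers of other cells, which the culture should lack, COL1A1 was at 1541 to 2399 CPM. The blood, endothelial and liver markers PTPRC, PECAM1 and ALB were not listed. Of the HGC27 markers looked for, the mesenchymal VIM was thus high and the epithelial ones low or not listed, while COL1A1, looked for as a marker of other cells, was high as well. The part of the KRT8 difference in the results and the source of the COL1A1 reads were not tested.

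Messenger RNAs for ribosomal proteins made up a smaller share of the siAARS1 libraries. The 83 members together took 12.2% and 11.7% of all CPM in the control libraries and 10.2% and 10.2% in the siAARS1 libraries, a mean of 11.9% ± 0.366 against 10.2% ± 0.0380 (SD, n = 2). The siAARS1 share was 0.854 times that of control, and the groups did not overlap. An exact permutation test (two-sided) of 2 against 2 libraries cannot go below its value here, p = 0.333. Large subunit members went from 7.12% ± 0.220 to 6.07% ± 0.00672 of all CPM and small subunit members from 4.81% ± 0.147 to 4.11% ± 0.0313 (SD, n = 2), and both were 0.854 times control. The large subunit therefore held nearly the same part of all member CPM in each library, between 59.5% and 59.8%. Genes for the mitochondrial ribosome took 0.607% and 0.592% of all CPM in control against 0.585% and 0.583% in siAARS1, 0.974 times the control share. A share of CPM says nothing of the amount of RNA in a cell, and fewer mRNA copies of a gene cannot be told apart from more RNA of other genes.

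**Figure D1:**
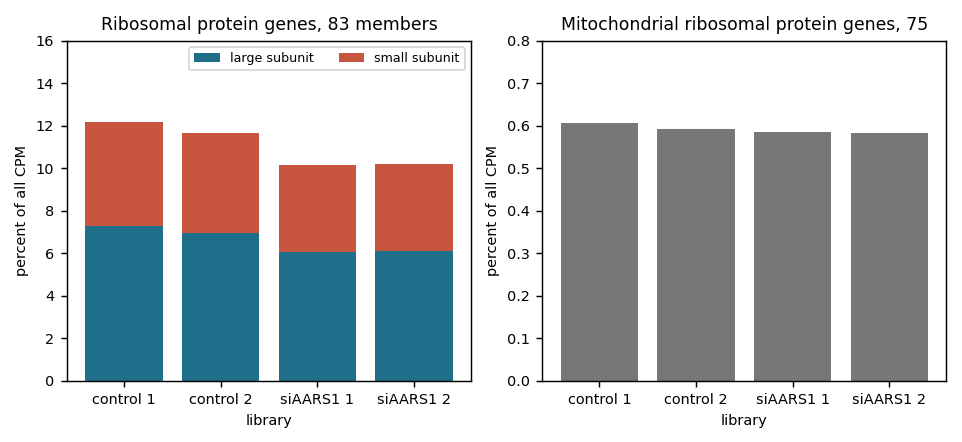
Percent of all CPM (y axis, linear from 0) taken by the 83 ribosomal protein genes, stacked by subunit (left), and by 75 mitochondrial ribosomal protein genes (right, on its own scale), with 1 bar for each library. The members took 12.2% and 11.7% in the control libraries and 10.2% in both siAARS1 libraries, and the mitochondrial genes 0.583% to 0.607%.

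Gene by gene, 65 of the 83 members were called lower in siAARS1 and 6 higher by limma at an adjusted p under 0.05, and 12 were not called. Over all 14199 genes tested the background was 38% called lower and 32.6% called higher. The siAARS1 libraries lay below both control libraries for 68 members and above both for 6, with a background of 46.6% and 38.5% of all genes tested. The 83 members all passed the filter on low values. The falls were small and alike: the median log2 fold change of the members was -0.22, with quartiles of -0.29 and -0.13, against a median of -0.05 over all genes tested. The 2 subunits had similar values, with 38 of 50 large subunit members called lower and 5 higher at a median of -0.21, and 27 of 33 small subunit members called lower and 1 higher at a median of -0.22. The 75 mitochondrial ribosomal protein genes had 32 calls lower and 17 higher, with a median of -0.08.

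The scaling between libraries moved these counts. When each library was scaled to its median gene, the median over all genes shifted from -0.05 to -0.25, and 78 members were called lower and 2 higher, beside 55.1% and 24.3% of all genes. The distance between the members' median and that of all genes was -0.16 as deposited and -0.18 after median scaling, but it was 0.01 after quantile normalization, under which 56 members were called lower and 7 higher, beside 47.7% and 28.1% of all genes. Of the 65 members called lower as deposited, 52 kept that call after quantile normalization and 1 changed direction. The members' fall relative to other genes thus depended on the scaling, while more members were called lower than higher under each scaling tried.

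**Figure D2:**
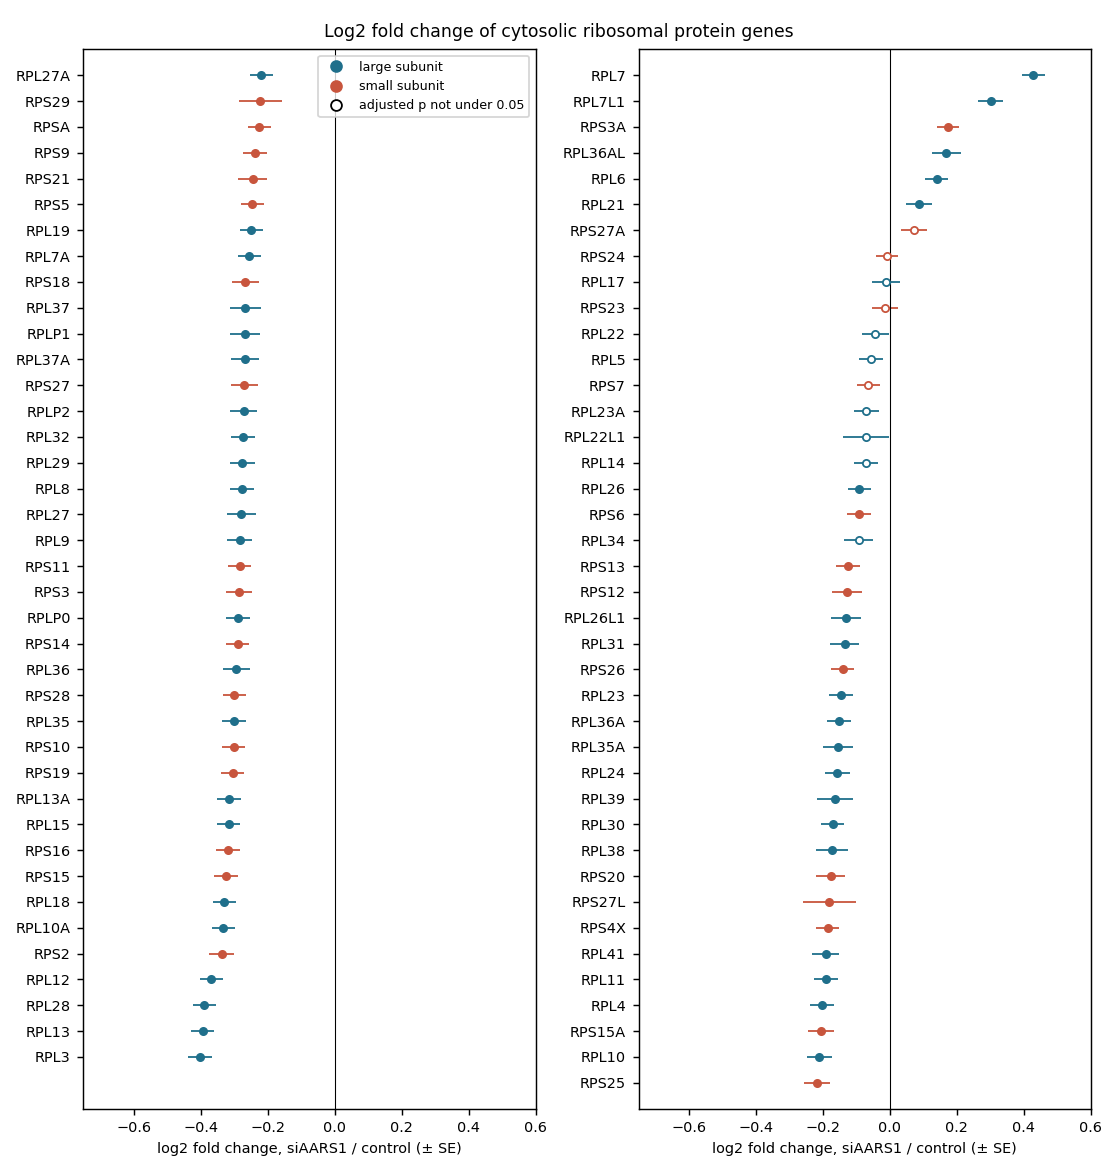
Log2 fold change of siAARS1 against control on the log2(CPM + 1) scale (x axis) with its SE for the members shown (y axis, sorted, the lower values on the left), coloured by subunit, with open circles for genes whose adjusted p was not under 0.05. Values run from -0.40 for RPL3 to 0.43 for RPL7, and genes of both subunits are mixed along the range.

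Among the members with the lowest log2 fold changes were the following genes of the large subunit. RPL3, a core protein near the site where amino acids are joined (chr22:39312882-39320389), had 3019 and 2998 CPM in control against 2321 and 2229 CPM in siAARS1, a log2 fold change of -0.40 ± 0.036 (SE, adjusted p = 1.69e-09). RPL13 had 2094 and 2036 CPM in control against 1585 and 1557 CPM, a log2 fold change of -0.39. RPL28 had 1098 and 1118 CPM against 863 and 829 CPM, also -0.39. In each of these genes both siAARS1 libraries lay below both controls, and the gap between the groups was wider than the gap between replicates. RPL12, part of the base of the stalk, had 2052 and 2022 CPM against 1574 and 1582 CPM, a log2 fold change of -0.37. RPL10A, at 1251 and 1246 CPM against 1001 and 982 CPM, had a log2 fold change of -0.33. Both genes likewise had no overlap between groups, and RPL3, RPL28, RPL12 and RPL10A were among the 15 members called lower under every setting tried.

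The most abundant members fell too. RPS2, a protein at the mRNA entry channel and the member with the highest CPM, had 7199 and 6957 CPM in control against 5689 and 5512 CPM in siAARS1, a log2 fold change of -0.34 ± 0.038 (SE, adjusted p = 8.49e-08). RPL13A had 3866 and 3754 CPM against 3088 and 3035 CPM, a log2 fold change of -0.32. RPS6, the small subunit protein phosphorylated by S6 kinase, had 3527 and 3421 CPM against 3257 and 3259 CPM, and at -0.09 it was the least changed of the 10 most abundant members. Its call was lost under 6 of 15 alternatives, among them the replicate block (adjusted p = 0.0565), DESeq2 (adjusted p = 0.26) and leaving out control replicate 1 (adjusted p = 0.174), siAARS1 replicate 1 or siAARS1 replicate 2, and its direction turned under 1 more. All 10 were called lower, beside 38% of all genes tested. Among the others, RPLP0, RPL4, RPL3, RPL10, RPS3 and RPL7A had log2 fold changes between -0.40 and -0.20. After quantile normalization 6 of the 10 were called lower, beside 47.7% of all genes. RPS2 was then at -0.07, RPL4 at -0.04, RPL10 at -0.01 and RPS6 at 0.04 without a call. These 10 genes made up 29.9% ± 0.345 of member CPM in control against 28.7% ± 0.460 in siAARS1 (SD, n = 2).

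The mRNAs for the P stalk, the arm of the large subunit that recruits elongation factors, were lower in siAARS1 as deposited. RPLP0, its base, had 3723 and 3621 CPM in control against 3074 and 2938 CPM in siAARS1, a log2 fold change of -0.29 (adjusted p = 5.09e-07). RPLP1 had 2222 and 1959 CPM against 1727 and 1740.2 CPM, and RPLP2 had 1333 and 1210.2 CPM against 1061 and 1043 CPM. Both had a log2 fold change of -0.27, with adjusted p-values of 1.62e-05 and 3.64e-06. All 3 were called lower with no overlap between groups, and 2 of them also after quantile normalization, where RPLP1 was at -0.04. Of all genes tested, 38% were called lower as deposited and 47.7% after quantile normalization, and 46.6% lay lower without overlap. After correction for coding GC content and length, RPLP0 was called lower at -0.09, and RPLP1 and RPLP2, at -0.03 and -0.01, were not called.

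RPL5 and RPL11 bind the 5S ribosomal RNA and enter the ribosome with it, and when left unassembled they bind the ubiquitin ligase MDM2. RPL11 had 1059 and 1003 CPM in control against 902 and 903 CPM in siAARS1, a log2 fold change of -0.19 (adjusted p = 6.30e-05). RPL5 (chr1:92831983-92841924) had 1474 and 1416 CPM against 1373 and 1404 CPM, a log2 fold change of -0.06 that did not pass the test (adjusted p = 0.154). The difference between the 2 genes was not tested. After correction for coding GC content and length their calls changed places, with RPL5 called lower at -0.32 and RPL11 not called at -0.05 (adjusted p = 0.11). They did not change places after the same correction on whole transcripts. There RPL5 was not called at -0.05 (adjusted p = 0.0716), and RPL11 was called lower at -0.11 (adjusted p = 0.00127). MDM2 rose from 20.5 and 21.1 CPM to 38.0 and 40.04 CPM, a log2 fold change of 0.88, but was at -0.07 after the coding sequence correction. CDKN1A, a cell cycle inhibitor, fell from 52.1 and 53.2 CPM to 22.9 and 22.1 CPM, a log2 fold change of -1.19.

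Genes for proteins at functional sites of the ribosome largely followed the other members. Of 8 large subunit genes at the peptide exit tunnel and its opening, 6 were called lower and none higher, with a median log2 fold change of -0.15, beside 38% and 32.6% of all genes tested. RPL35 had the lowest value among them at -0.30, and RPL17 and RPL23A were not called. RPL39, one of the smallest ribosomal proteins, was called lower at -0.16 although its siAARS1 libraries, at 760 and 844 CPM, overlapped the controls at 973 and 829 CPM. All 7 genes of the mRNA entry and exit channel were called lower, with a median of -0.28, among them RPS3 at -0.28, RPS14 at -0.29 and RPS28 at -0.30. Of 14 genes known to cause Diamond-Blackfan anaemia when 1 copy is lost, 11 were called lower and none higher, with a median of -0.21. RPS19, the gene most often affected in that disease, had 834 and 810 CPM in control against 655 and 676 CPM in siAARS1, a log2 fold change of -0.30. After correction for coding GC content and length, 3 of the 8 tunnel genes were called lower and none higher. Of the 7 channel genes, 2 were called lower and 1 higher. Of 13 anaemia genes with a coding sequence, 6 were called lower and 1 higher. The shares over all coding genes were then 33.1% and 33.9%. RPL35, RPS14, RPS28 and RPS19 were not called, at -0.03, -0.02, -0.0063 and -0.02.

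Against this background 6 members were higher in siAARS1. RPL7, a protein of the large subunit (chr8:73290267-73295789), had 1388 and 1414 CPM in control against 1846 and 1926 CPM in siAARS1, a log2 fold change of 0.43 ± 0.035 (SE, adjusted p = 5.10e-10). Its part of all member CPM was 1.16% and 1.23% in control and 1.83% and 1.90% in siAARS1. RPL7L1, its paralog and a factor of ribosome assembly (chr6:42879618-42889925), had 205 and 202 CPM against 248 and 253 CPM, a log2 fold change of 0.30 ± 0.037 (SE, adjusted p = 3.04e-07). Both genes were called higher under every setting tried. RPS3A had 888 and 900 CPM against 1010.0 and 1007 CPM, a log2 fold change of 0.17. RPL6 had 925 and 911 CPM against 998 and 1025 CPM, a log2 fold change of 0.14. RPL21 had 1150.4 and 1088 CPM against 1152 and 1226 CPM, a log2 fold change of 0.09. In RPL21 the lower siAARS1 library exceeded the higher control by little. Its call was lost without control replicate 2 (adjusted p = 0.378) and without siAARS1 replicate 2 (adjusted p = 0.392). The direction of RPS3A, RPL6, RPL21 and the paralog RPL36AL turned under median scaling, to -0.04, -0.07, -0.12 and -0.04. RPL21 was then called lower (adjusted p = 0.0168), beside 55.1% of all genes, and RPS3A, RPL6 and RPL36AL were not called.

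Among the 12 members that were not called, RPS24 was the closest to no difference, with 1237 and 1236 CPM in control against 1214 and 1244 CPM in siAARS1. RPS23, a protein of the decoding centre, had 1885 and 1747 CPM against 1755 and 1839 CPM. RPL17 had 1702 and 1539.7 CPM against 1577 and 1634 CPM. In these 3 genes the groups overlapped, and the log2 fold changes were -0.01 with SEs of 0.034, 0.039 and 0.041. RPS27A, made as a fusion with ubiquitin, had 1253 and 1171 CPM against 1235 and 1313 CPM, a log2 fold change of 0.07 (adjusted p = 0.105). RPL22, RPL34, RPL14, RPL23A and RPS7 were between -0.09 and -0.04, and RPL5 and RPL22L1 were not called either. After median scaling all 12 were called lower, with log2 fold changes of -0.14 to -0.30. That scaling called 55.1% of all genes lower and put the median over all genes at -0.25, within the range of these members.

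**Figure D3:**
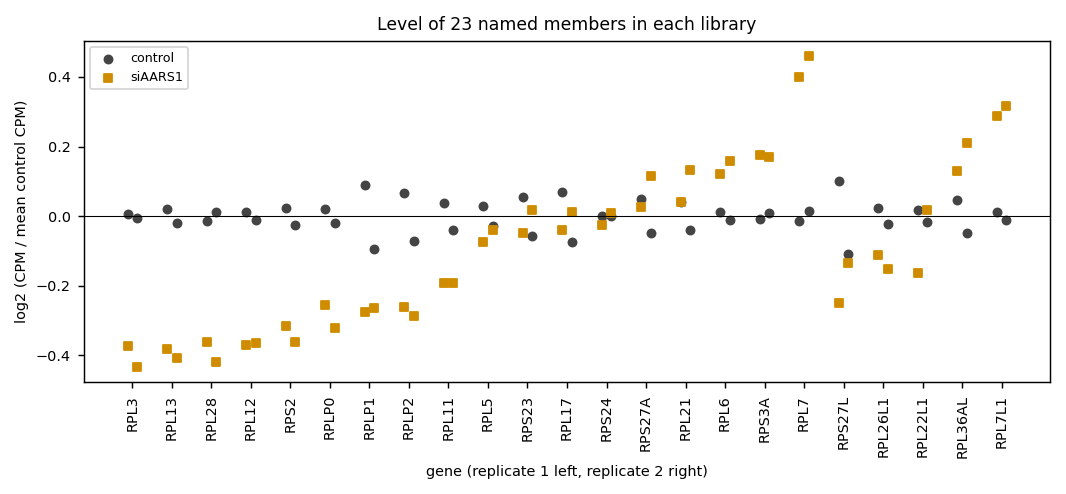
Log2 of the CPM in each library over the mean CPM of the 2 control libraries (y axis) for named members (x axis), with circles for control and squares for siAARS1, replicate 1 on the left and replicate 2 on the right of each gene. RPL3 to RPL11 have both siAARS1 libraries below both controls, RPS23 to RPS27A overlap, and RPL7 and RPL7L1 lie above.

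The 5 duplicated paralogs had lower levels than most other members and did not share a direction. They are proteins from gene copies that can stand in for a ribosomal protein or act outside the ribosome. RPS27L, a copy of RPS27, had 27.8 and 24.0 CPM in control against 21.8 and 23.6 CPM in siAARS1, a log2 fold change of -0.18 (adjusted p = 0.0444). That call was lost under 5 of 15 alternatives: edgeR with TMM, DESeq2, and leaving out control replicate 1, siAARS1 replicate 1 or siAARS1 replicate 2, with values between -0.28 and -0.08 when 1 library was left out. RPL26L1 had 95.1 and 92.0 CPM against 86.6 and 84.2 CPM, a log2 fold change of -0.13. RPL22L1 had 32.6 and 31.9 CPM against 28.8 and 32.6 CPM and was not called. RPL36AL had 136 and 127 CPM against 144 and 152 CPM, a log2 fold change of 0.17 (adjusted p = 0.00196). With RPL7L1 this gave 2 calls lower and 2 higher of 5, beside 38% and 32.6% of all genes tested. Per kilobase of coding sequence, RPL22L1, RPL26L1, RPL7L1 and RPL36AL had 88.1, 215, 265 and 413 CPM in control, the 4 lowest of the 72 members with at least 300 coding bases. The median of those 72 was 2542 CPM per kilobase, and the 10th and 90th percentiles, 1090.1 and 4221 CPM per kilobase, differed 3.87-fold. RPS2 had the highest level, with 8052 CPM per kilobase in control and 6372 CPM in siAARS1.

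Genes for ribosomal proteins whose symbols do not follow the rule were lower as deposited, like most members. RACK1, a scaffold on the small subunit listed as GNB2L1, had 3235 and 3123 CPM in control against 2596 and 2501 CPM in siAARS1, a log2 fold change of -0.32. FAU, which encodes RPS30 fused to a ubiquitin-like protein, had 391 and 354 CPM against 317 and 310 CPM, a log2 fold change of -0.25. Both were called lower, beside 38% of all genes tested. After correction for coding GC content and length RACK1 was called lower at -0.10, and FAU, at 0.06, was not called (adjusted p = 0.128).

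Other genes known for a TOP tract did not follow the ribosomal proteins as a group. Of 16, 4 were called lower and 9 higher, with a median log2 fold change of 0.10, beside 38% and 32.6% of all genes tested. The elongation factors EEF1G and EEF2 were lower at -0.36 and -0.34, EEF2 with 8283 and 8235 CPM in control against 6731 and 6335 CPM in siAARS1. After correction for coding GC content and length EEF1G was at -0.17, and EEF2, at -0.03, was no longer called (adjusted p = 0.329). EIF3E, a subunit of initiation factor eIF3, rose from 106 and 121 CPM to 278 and 301 CPM, a log2 fold change of 1.34. The histone chaperone NAP1L1, the nucleolar protein NPM1 and NACA, which binds new proteins at the tunnel exit, were higher at 1.05, 0.71 and 0.70. After the same correction EIF3E, NAP1L1, NPM1 and NACA were still called higher, at 0.45, 0.20, 0.27 and 0.66, and 4 of the 16 genes were called lower and 7 higher. EEF1A1, the factor that brings aminoacyl-tRNA to the ribosome, had 13994 and 13942 CPM in control against 13448 and 13702 CPM in siAARS1 and was not called. After the correction it was called lower, at -0.15.

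Of 10 genes that control TOP mRNAs or ribosomal proteins, 5 were called higher and 2 lower, beside 32.6% and 38% of all genes tested. LARP4, a poly(A) mRNA-binding protein, rose from 24.6 and 23.7 CPM to 94.5 and 104 CPM, a log2 fold change of 1.99. RPS6KB1, which encodes S6 kinase 1, rose from 15.6 and 16.4 CPM to 39.6 and 40.8 CPM, at 1.28. EIF4EBP1, an inhibitor of cap-dependent translation, fell from 157 and 166 CPM to 133 and 131 CPM, at -0.29. LARP1 had 559 and 568 CPM in control against 581 and 581 CPM and was not called. After correction for coding GC content and length LARP4 was at 0.99, RPS6KB1 at 0.92 and EIF4EBP1 at 0.04 without a call, and LARP1 was called higher at 0.14. Of 12 chaperones and assembly helpers of ribosomal proteins, 7 were called higher and 1 lower, with a median of 0.21, beside the same shares of all genes. Among them LTV1, which helps assemble the head of the small subunit, rose from 11.6 and 9.58 CPM to 32.8 and 35.4 CPM, at 1.60. BCCIP, a chaperone of RPL23, rose from 43.8 and 40.5 CPM to 78.4 and 86.0 CPM, at 0.95. After the correction LTV1 was at 0.80 and BCCIP at 0.64, both called higher.

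The members' changes were ordered by the GC content of their coding sequence. Across the 82 members with a coding sequence in GENCODE 29, which all share the same 4 libraries, coding GC content and log2 fold change had a rank correlation of -0.79, and over all 12262 coding genes tested it was -0.67. Of the 28 members with the lowest GC content, 40.4% to 47.9%, 14 were called lower and 6 higher, with a median of -0.09. Of the 27 in the middle, 23 were called lower with a median of -0.22, and all 27 members from 54.0% to 63.0% were called lower with a median of -0.30. Of all coding genes in the same 3 ranges, 9.96%, 38.7% and 64.1% were called lower and 68.1%, 29.4% and 7.49% higher. Their medians were 0.46, -0.06 and -0.24. The median of the members with high GC content thus lay close to that of other genes of like composition. Of the 28 with the lowest GC content, 27 lay below the median of coding genes in their bin of GC content, all but RPL7L1. The share of alanine codons, which ranged from 1.64% to 20.9%, had a rank correlation of -0.19 with the log2 fold change across the 82 members, and coding length one of -0.09. Over all 12262 coding genes tested, the rank correlations with the log2 fold change were -0.34 for alanine codons and 0.25 for coding length. Alanine codons are GC-rich, and their share had a rank correlation with coding GC content of 0.32 across the members and 0.57 over all coding genes.

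**Figure D4:**
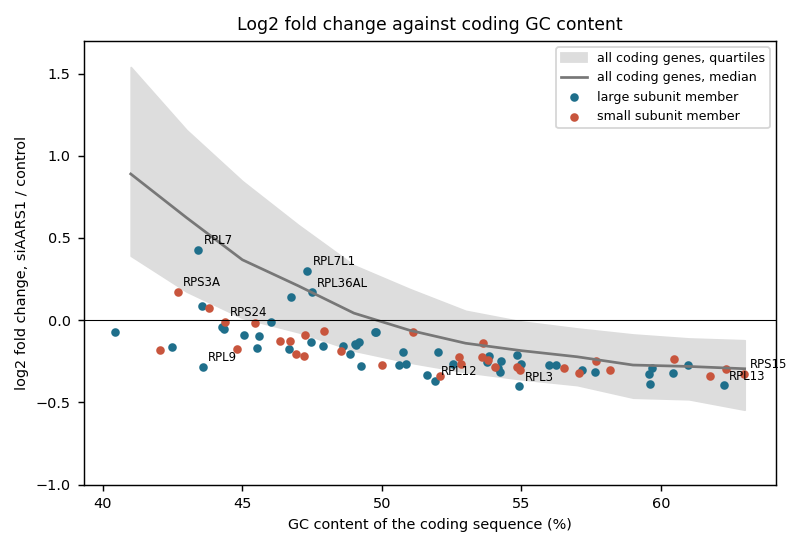
Log2 fold change of siAARS1 against control (y axis) by GC content of the coding sequence in percent (x axis), with 1 point for each of 82 members, coloured by subunit. The grey line and band are the median and quartiles of all coding genes in bins of GC content, which fall from above 0 at low GC content to below 0 at high GC content, and 23 of the 28 members of lowest GC content lie below the lower quartile of their bin.

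Because the trend ran through the whole table, the members were also compared after each library was corrected for coding GC content and coding length. Then 34 of 82 members were called lower and 6 higher, beside 33.1% and 33.9% of all 12262 coding genes, and the median of the members was -0.05. Over all members the share called lower was then near that of other genes, while fewer were called higher. By composition, 18 of the 28 members of lowest GC content were called lower and 4 higher after the correction, and 6 of the 27 members of highest GC content lower and 1 higher. The falls of RPS2 and RPL13 were no longer called, at -0.0044 and -0.06. The direction of 8 of the 64 members called lower turned, among them RPL10 at 0.02 and RPS15 at 0.01. Of the members called higher, RPL7, RPL7L1, RPL36AL and RPL6 stayed called, at 0.16, 0.28, 0.26 and 0.06, while RPS3A was called lower at -0.18 and RPL21 was at -0.05. RPL5 was called lower at -0.32 (adjusted p = 2.96e-11), and RPL4 and RPL3 at -0.26 and -0.19. The 2 corrections differed for some genes. With whole transcripts in place of coding sequences, RPS3A and RPL21 were called higher at 0.16 and 0.17, and RPL5 was not called at -0.05. Of the 28 members of lowest coding GC content, 12 were then called lower and 8 higher, beside 4587 and 4484 of all 13819 genes. Whether the relation with GC content arose in the cells or in the libraries was not tested.

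Some members share sequence with other rows of the table. The table lists 32 ribosomal protein pseudogenes, of which 15 were called lower and 1 higher beside 38% and 32.6% of all genes tested, and 3 readthrough genes that run from a member into a neighbour. RPL41P1 had 2335 and 2117 CPM in control against 1848 and 1878 CPM in siAARS1, more than RPL41 itself in each library, and RPL41 had 1735 and 1585 CPM against 1428 and 1478 CPM. RPL9P8 and RPL9P9 had identical values in all 4 libraries, 111 and 115 CPM against 96.0 and 97.0 CPM. Reads of RPL41 and RPL9 can therefore be split over these rows, and their values are uncertain, including that of RPL9 at -0.28.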

How the data were processed

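RNA-seq libraries of HGC27 cells, 2 control and 2 siAARS1, were grouped by their titles. The authors deposited 1 table of CPM values for 14431 genes, and the submitters' processing notes name RSEM 1.3.3 and hg38 without giving their role. Use of strand is not given in the sources used here. In each library 100% of CPM values were whole multiples of 1 read (tolerance 0.1 reads). CPM takes no account of gene length or base composition.

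Genes that averaged 1 CPM or more in 1 group were tested with limma 3.58.1 (R 4.3.3, eBayes with trend) on log2(CPM + 1), a scale that understates changes of low genes. P-values were adjusted by Benjamini-Hochberg over all 14199 genes. On the recovered reads, edgeR 4.0.16 with TMM called 9806 genes, while limma called 10032 on the log2(CPM + 1) values without TMM. Coding GC content and length were corrected within each library by a smooth fit (mgcv 1.9.3), with GENCODE 29 gene models on GRCh38. The test was also run on simulated counts in which few genes changed. Most genes tested were called in these data, so that run cannot show how the test behaves here. The floors cover counting error only, while SEs and SDs come from the spread between libraries.

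The members and lists were chosen with earlier results of these data known. Named genes were AARS1, all P stalk, 5S, paralog and off-pattern genes, the 10 members highest in control, the 8 lowest and 8 highest fold changes, up to 10 members not called or overlapping, and up to 4 called genes per other list. Genes named outside this rule, which are EEF1G, EEF2, EEF1A1, LARP1, RPL34, RPL9, RPL41 and the pseudogenes, were chosen after their values were seen. Replicate libraries differed beyond sampling noise (chi-square per gene 3.62 and 3.60) and were kept apart. Some genes that this rule names are not reported here.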

Additional observations from a re-analysis of the deposited data

How the results depend on the processing

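The members called lower were 34 after the coding sequence correction, added after seeing the data, and 45 after the same correction on whole transcripts, whose models are implausibly long for some members. The members called higher were 2 after median scaling and 10 after the transcript correction with the replicate block. Their median was -0.429 after median scaling, -0.138 after quantile normalization, -0.0742 after the transcript correction with or without the block, and -0.0519 after the coding sequence correction. Its distance from the median of all genes was 0.00909 after quantile normalization, -0.0685 after the transcript correction with or without the block, and -0.0507 after the coding sequence correction. The share of CPM fell by 0.889 percentage points after quantile normalization and by 1.75 as deposited. The causes of these shifts were not tested. Leaving out 1 library gave 54 (without control replicate 1) to 67 members lower, 4 to 8 higher, medians from -0.27 to -0.17, distances from -0.22 to -0.12, and share differences from -2.004 to -1.486 points. Of the 65 members called lower, 54, 64, 57 and 61 stayed called without control replicate 1, control replicate 2, siAARS1 replicate 1 and siAARS1 replicate 2, and of the 6 called higher 6, 4, 6 and 5, with no change of direction. With 1 library in a group, the lone library was assumed to vary like the other group. Without a filter, with a pseudocount of 0.1, at a threshold of 0.01, with edgeR or with DESeq2, each of these counts was within 1.5 times the reported one and the median kept its sign. DESeq2 called 52 members lower and 7 higher.

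The labels do not say whether a replicate number marks a shared culture or day, and the deviations of libraries with the same number correlated at 0.118 over all genes and -0.165 over the members. A replicate block gave 65 members lower, of which 64 were also called without it, and 6 higher, and RPS6 lost its call under it (adjusted p = 0.0565).

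The following log2 fold changes changed direction. After median scaling RPL36AL was at -0.0399, RPS3A at -0.0368, RPL6 at -0.0705, RPL21 at -0.123 and RPS27A at -0.138. After quantile normalization RPS6 was at 0.0355, RPL17 at 0.048, RPS23 at 0.15 and RPS7 at 0.0476. After the transcript correction, with or without the replicate block, FAU was at 0.0285, RPS24 at 0.0726, RPS7 at 0.0251, RPL23A at 0.0709 and EIF4EBP1 at 0.00229. After the coding sequence correction FAU was at 0.0566, RPL10 at 0.0232, RPS3A at -0.179, RPL21 at -0.0491, RPS27A at -0.0443, RPL23A at 0.0571, RPL14 at 0.0231, RPS15 at 0.00802, EIF4EBP1 at 0.043, NVL at -0.0485 and MDM2 at -0.0738. With edgeR and TMM RPS24 was at 0.0292, RPL17 at 0.0235 and RPS23 at 0.0223. With DESeq2 RPS24 was at 0.0436, RPL17 at 0.0384, RPS23 at 0.0371 and RPL22 at 0.00847. Leaving out 1 library placed RPL22L1 between -0.158 and 0.0173, RPS24 between -0.026 and 0.00843, RPL17 between -0.0848 and 0.0601, RPS23 between -0.0696 and 0.0404 and RPL22 between -0.0952 and 0.00786, and none of these was called with all 4 libraries.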
